A study of Mus musculus with 24 samples.

Results

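Glutathione S-transferases (GSTs) join the tripeptide glutathione to electrophilic compounds, which is a main route of detoxification in the liver. The 10 genes described here encode soluble GSTs of the alpha class (Gsta2, Gsta3, Gsta4), the mu class (Gstm1, Gstm2, Gstm3, Gstm6), the pi class (Gstp1) and the theta class (Gstt1, Gstt3). They were chosen by name, and every non-control probe bearing one of the names was taken. This gave 14 of the 56605 non-control probes. Gsta3 had 3 probes, Gstm1 and Gstm6 had 2 each, and the other members had 1. All 14 were well above background on all 24 arrays, so each of the 10 members was among the 22088 genes tested. A gene with several tested probes was represented by the one with the highest mean.

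Livers came from female mice 8 weeks old on a sv129/C57 background, and 1 one-colour Agilent array was run per mouse. The groups were wild-type mice given water (WT control), wild-type mice given fumonisin B1 at 10 mg/kg body weight per day for 1 month (WT FB1), mice lacking LXRα and LXRβ given water (KO control), and such knockout mice given the same toxin (KO FB1), with 6 mice in each. Fumonisin B1 is a fungal toxin that blocks ceramide synthases, and the LXRs, encoded by Nr1h3 and Nr1h2, are receptors that sense oxysterols. The sources used here do not say in which cells, or over which parts of the genes, the receptors were deleted. RNA was of whole liver, so fewer cells of a type and less RNA per cell cannot be told apart. The comparisons ask what the toxin changes in each genotype, what receptor loss changes without and with the toxin, and whether the toxin's effect differs between genotypes.

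In liver, GSTs act after or beside the cytochrome P450 enzymes, and their conjugates leave the cell through ATP-driven exporters to be trimmed to mercapturates. Alpha, mu and pi genes are known targets of the electrophile sensor NRF2 and of the xenobiotic receptors CAR and PXR, and several differ between the sexes and along the liver lobule. Theta enzymes are known for acting on small halogenated molecules. A pi enzyme is known as a marker of altered hepatocyte foci in the rat.

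Each array value is the signal of a stretch of 60 bases, and members of a class can be alike in sequence, so the middle 30 bases of the probes behind the main results are given first, 5′ to 3′ as in the probe. Positions follow build mm9, as in the files. The probes of the theta genes lie on chromosome 10 on the minus strand, at 75246560 to 75246619 for Gstt1 and at 75236966 to 75237025 for Gstt3. Those of Gstm2 and Gstm3 lie on chromosome 3 on the minus strand, at 107784622 to 107784681 and at 107766730 to 107766789. The Gstp1 probe lies on chromosome 19 on the minus strand, at 4037306 to 4037365, and the Gsta3 probe on chromosome 1 on the plus strand, at 21255189 to 21255248.
Gstt1: ttccccttgagtctgggtaataaactgggg
Gstt3: ctgactttccaaattcttgtcccaagcatt
Gstm2: agtaagcagctaagccccatttggttctca
Gstm3: ggtcaatactatcttagtgacggccctccc
Gstp1: ctggaaggaggaggtggttaccatagatac
Gsta3: ggatgctctctagttgtagttaaaattgaa
The main probes of these 6 members share no run of 15 or more bases with the probe of another gene on the array. The files nevertheless list both Gstp1 and Gstp2 for the Gstp1 probe, so its signal cannot be given to Gstp1 alone. The main Gstm1 probe is placed on chromosome 5, at 117082490 to 117082549, and the other Gstm1 probe on chromosome 3, where the other mu genes lie. These 2 probes correlated at r = 0.89 over the 24 arrays.

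Gsta2 is the member with a near-identical neighbour. Its probe, on chromosome 9 at 78178856 to 78178915, shares a run of 30 bases with the probe of the predicted gene Gm10639, at 78153243 to 78153302 of the same chromosome. The first 30 bases of both probes are shown because they differ by 1 substitution, T23G, counted from the 5′ end of the Gsta2 probe, which the capital marks.
Gsta2: gccacagatactggcctctaatTgtttgca
Gm10639: gccacagatactggcctctaatGgtttgca
Values of Gsta2 may therefore hold signal from that copy, and the genes are given side by side below.

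Over the whole series, 58.7% to 64.5% of the 59305 non-control spots per array were well above background, no spot was saturated, and correlations over genes between arrays within a group ran from 0.984 to 0.994. All 14 hepatocyte markers tested were well above background on all 24 arrays. The main probe of the deleted Nr1h3 read 4.71 to 5.06 in WT and -5.13 to -2.56 in KO arrays, and that of Nr1h2 read 4.02 to 4.34 in WT and 0.31 to 0.80 in KO arrays. A second Nr1h2 probe was not lower in KO (-2.59 to -2.03 in WT and -2.36 to -1.85 in KO arrays), and whether it lies in the deleted part is not known here. Here and below a level is log2 of the processed signal relative to the array's 75th percentile. Levels are compared between groups and never between probes. A difference is between means of 6 arrays, with its standard error after ±, from limma over all 24 arrays, and p-values are adjusted by Benjamini-Hochberg over all 22088 genes and called under 0.05. Labels describe mice of a group without naming litters or cages, so the spread is that between these samples.

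Single arrays were at the edge of their group for many members. KO FB1 replicate 5 was the lowest of its group for 8 of the 10 members, against 18.5% of all genes, and KO FB1 replicate 3 was the highest for 8 of the 10, against 32.4% of all genes. WT control replicate 6 was the lowest for 6 of the 10, against 19.8%. Relative to the median of the 6 KO FB1 arrays, replicate 5 lay at -1.80 for Gsta2, -1.02 for Gsta4, -0.90 for Gstm2 and -0.71 for Gstm3. For the theta genes it lay at 0.040 for Gstt1 and -0.029 for Gstt3. Where a call changes without replicate 5, both values are given.

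**Figure D1:**
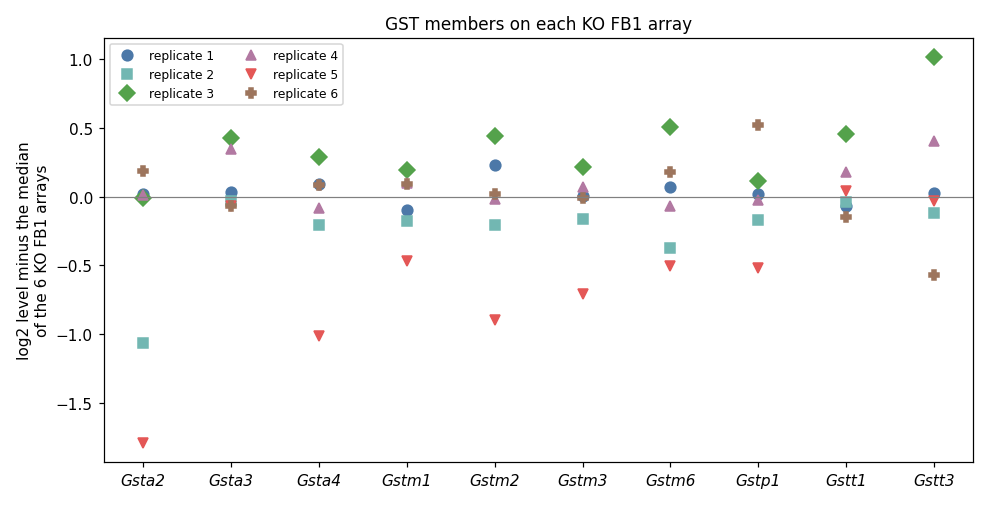
Levels of the 10 members on each of the 6 KO FB1 arrays, as log2 difference from the group's median (y axis) for each gene (x axis), with 1 symbol per array. Replicate 5 is lowest for 8 members and lies near the median for Gstt1 and Gstt3.

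FB1 in KO liver changed 7 of the 10 members, in a comparison that called 41.2% of all genes. Theta genes fell most, with Gstt3 at 27.2% and Gstt1 at 53.8% of the KO controls, while Gstp1, Gstm2 and Gstm3 rose by 1.67-fold, 1.41-fold and 1.40-fold, and Gsta3 and Gstm6 fell by less than the theta genes. Without the toxin, receptor loss changed Gstt3 alone among the members, against 15.2% of all genes. In WT mice the toxin changed none of the 10 past the threshold, against 2.89% of all genes. The plot of levels by array shows these patterns.

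**Figure D2:**
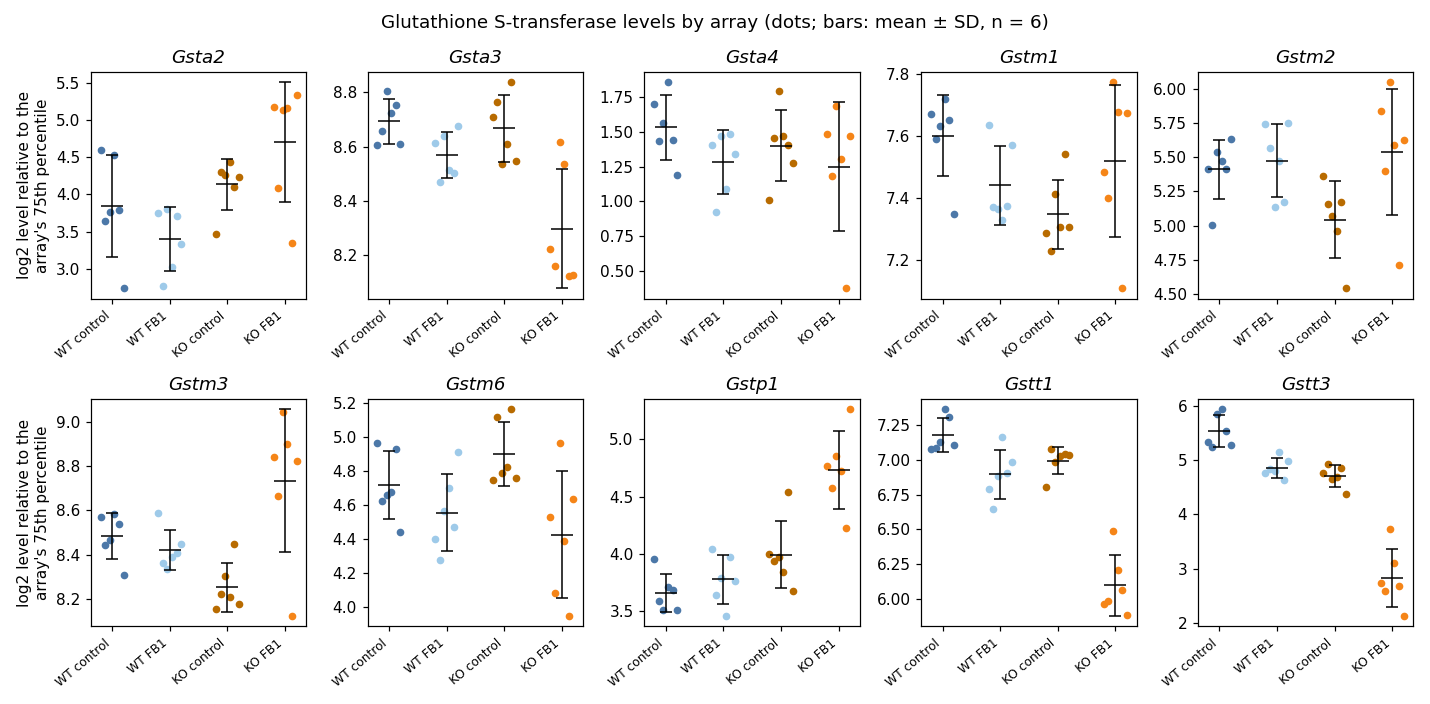
Level of each member on every array (dots, y axis, log2 relative to the array's 75th percentile) in the 4 groups (x axis), with the mean and SD of 6 arrays as bars; the y axis differs between panels and does not start at 0. The KO FB1 arrays lie below all other arrays for Gstt1 and Gstt3, and the WT groups lie close together in most panels.

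Of the 10 members, the theta genes Gstt1 and Gstt3 moved furthest with FB1 in KO. The tested theta gene outside the members, Gstt2, was not called there (-0.25 ± 1.22, limma adjusted p = 0.888). Its spread is shared over all arrays and holds 1 WT control array at -7.32, so this test cannot decide whether Gstt2 changed. Gstt2 read 2.54 to 3.61 in KO control and 2.60 to 3.28 in KO FB1 arrays. Its other probe read -0.97 to 0.82 and -0.18 to 0.70 in these groups. Gstt3 levels in WT control replicates 1 to 6 were 5.33, 5.25, 5.85, 5.93, 5.53 and 5.29, and in WT FB1 replicates 4.76, 4.84, 4.79, 5.14, 4.63 and 4.99. KO control replicates read 4.77, 4.93, 4.65, 4.68, 4.85 and 4.37, and KO FB1 replicates 2.74, 2.59, 3.72, 3.11, 2.68 and 2.14. Group means thus ran downward from WT control through WT FB1 and KO control to KO FB1, in which the middle groups overlapped and the other neighbours did not. FB1 lowered Gstt3 in KO by 3.68-fold (-1.88 ± 0.19, limma adjusted p = 1.58e-07). Receptor loss lowered it by 1.77-fold without FB1 (-0.82 ± 0.19, limma adjusted p = 0.00309) and by 4.09-fold with FB1 (-2.03 ± 0.19, limma adjusted p = 1.42e-08). In WT the difference was -0.67 ± 0.19, with limma adjusted p = 0.0505, although each WT FB1 array lay below every WT control array. That value passed the threshold under 8 of 13 alternatives and without any 1 of 5 arrays (WT control 2 or 6, WT FB1 4, KO FB1 3 or 6), with limma adjusted p from 0.0109 to 0.0475 in the latter. Its difference between the FB1 effects in KO and WT was -1.21 ± 0.26 (limma adjusted p = 0.00636), and within slides 1, 2 and 3 this was -1.44, -0.060 and -2.13.

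Gstt1 followed the same order of groups at its extremes. WT control replicates 1 to 6 read 7.08, 7.08, 7.13, 7.36, 7.31 and 7.11, and WT FB1 replicates 6.79, 6.64, 6.88, 7.16, 6.91 and 6.99. KO control replicates read 6.81, 7.07, 6.98, 7.03, 7.04 and 7.03, and KO FB1 replicates 5.96, 5.99, 6.49, 6.21, 6.07 and 5.88. All KO FB1 arrays lay below all arrays of the other groups. FB1 lowered Gstt1 in KO by 1.86-fold (-0.89 ± 0.094, limma adjusted p = 3.41e-07), and with FB1 the KO level was 1.74-fold below WT (-0.80 ± 0.094, limma adjusted p = 7.69e-07). In WT the difference was -0.28 ± 0.094 (limma adjusted p = 0.11, and 0.0485 without WT FB1 replicate 4). Between genotypes without FB1 it was -0.18 ± 0.094 (limma adjusted p = 0.223), although the groups did not overlap. The FB1 effects of the genotypes differed by -0.61 ± 0.13 (limma adjusted p = 0.00645), with -0.68, -0.046 and -1.11 within slides 1, 2 and 3. Over the 24 arrays Gstt1 and Gstt3 correlated at r = 0.96, and at 0.73 once group means were removed, as a description of arrays that share the same groups and scaling.

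**Figure D3:**
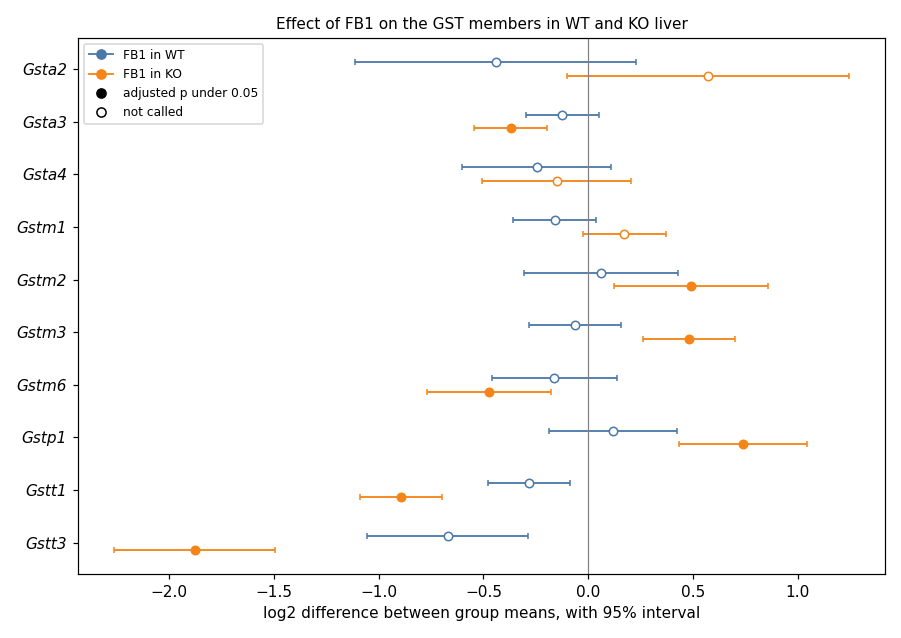
Log2 difference between FB1 and control means (x axis) for the 10 members (y axis) in WT and in KO, with 95% intervals from limma; filled symbols have adjusted p under 0.05 and open symbols do not. In KO 4 members lie below 0 and 3 above it with filled symbols, and in WT every symbol is open.

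The pi gene moved the other way. Gstp1, whose enzyme also restrains stress kinase signalling, read 3.96, 3.59, 3.51, 3.71, 3.68 and 3.51 in WT control and 4.04, 3.64, 3.78, 3.46, 3.97 and 3.76 in WT FB1 replicates 1 to 6. It read 3.996, 3.94, 3.97, 3.84, 4.54 and 3.67 in KO control and 4.76, 4.57, 4.85, 4.72, 4.22 and 5.26 in KO FB1 replicates. KO FB1 lay above both WT groups on every array, and overlapped KO control through KO control replicate 5 and KO FB1 replicate 5. FB1 raised it in KO by 0.74 ± 0.15 (limma adjusted p = 0.000382), and with FB1 it was 1.94-fold above WT (0.96 ± 0.15, limma adjusted p = 2.47e-05). In WT the difference was 0.12 ± 0.15 (95% interval -0.19 to 0.42). The difference between the FB1 effects was 0.62 ± 0.21 (limma adjusted p = 0.0613), which passed without WT FB1 replicate 1, KO control replicate 5 or KO FB1 replicate 5 (limma adjusted p from 0.02 to 0.0449). Within slides 1, 2 and 3 the FB1 difference in KO was 0.14, 0.95 and 1.13.

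Mu genes split. Gstm3, a mu subunit of mouse liver, read 8.57, 8.44, 8.46, 8.58, 8.54 and 8.31 in WT control and 8.59, 8.36, 8.33, 8.39, 8.41 and 8.45 in WT FB1 replicates 1 to 6. In KO control it read 8.15, 8.22, 8.31, 8.21, 8.45 and 8.18, and in KO FB1 8.84, 8.67, 9.04, 8.90, 8.12 and 8.82. Of the 6 KO FB1 arrays, 5 lay above every array of the other groups and replicate 5 lay below them all. FB1 raised Gstm3 in KO by 0.48 ± 0.11 (limma adjusted p = 0.000996), and by 0.60 without replicate 5. Within slides 1, 2 and 3 this difference was 0.018, 0.81 and 0.62, so slide 1 held almost none of it. The FB1 effects differed between genotypes by 0.54 ± 0.15 (limma adjusted p = 0.0251), and by 0.14, 0.85 and 0.64 within slides 1, 2 and 3. With FB1 it was higher in KO than in WT by 0.31 ± 0.11 (limma adjusted p = 0.0273). This last call was lost without any 1 of 6 arrays (WT FB1 2 or 3, KO FB1 1, 3, 4 or 6), with limma adjusted p from 0.0501 to 0.0684. Without FB1 it differed by -0.23 ± 0.11 (limma adjusted p = 0.161), and this passed without KO FB1 replicate 5 (limma adjusted p = 0.0273), which alters the shared spread and not the difference.

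Gstm2 read 4.54 to 5.37 in KO control and 4.71 to 6.05 in KO FB1 arrays, with medians of 5.11 and 5.61. FB1 raised it in KO by 0.49 ± 0.18 (limma adjusted p = 0.0297). The call was lost without any 1 of 5 arrays (KO control 4 or 6, KO FB1 1, 3 or 6), with limma adjusted p from 0.0508 to 0.0837, while without KO FB1 replicate 5 the difference was 0.66. It was also lost with scaling to the array median (0.41, limma adjusted p = 0.0624), and within slides 1, 2 and 3 the difference was -0.067, 0.87 and 0.68. In WT it read 5.01 to 5.63 without and 5.14 to 5.75 with FB1, and the groups overlapped. Its difference between genotypes was -0.37 ± 0.18 without FB1 (limma adjusted p = 0.185).

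Gstm1 was not called in any comparison with all arrays. Its main probe is the one placed on chromosome 5, so these values may not be of Gstm1 alone. It read 7.35 to 7.72 in WT control, 7.33 to 7.63 in WT FB1, 7.23 to 7.54 in KO control and 7.11 to 7.77 in KO FB1 arrays. Its FB1 difference in KO was 0.17 ± 0.096 (limma adjusted p = 0.155), and 0.26 without KO FB1 replicate 5 (limma adjusted p = 0.0194). That array also decided the difference between the FB1 effects, which was 0.33 ± 0.14 (limma adjusted p = 0.124) with it and 0.42 (limma adjusted p = 0.0254) without it. Between genotypes without FB1 the difference was -0.25 ± 0.096 (limma adjusted p = 0.0788), called without WT control replicate 6 or KO FB1 replicate 5 (limma adjusted p from 0.0342 to 0.0361). After group means were removed, Gstm1 and Gstm3 correlated at r = 0.91 over the 24 arrays. With quantile normalisation the FB1 difference in KO was 0.42 (limma adjusted p = 0.00234), and the differences between genotypes with FB1 and between the FB1 effects were also called, as they were with the authors' values. The other Gstm1 probe gave 0.071 ± 0.12 for FB1 in KO (limma adjusted p = 0.666, adjusted over all probes tested, as for each second probe below).

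Gstm6 was the mu member that fell. It read 4.75 to 5.16 in KO control and 3.95 to 4.96 in KO FB1 arrays, a change of -0.47 ± 0.14 (limma adjusted p = 0.0113). Its other probe gave -0.12 ± 0.13 (limma adjusted p = 0.518), and the probes correlated at 0.68 over the 24 arrays. In the authors' deposited value table the fitted difference was -0.013 (limma adjusted p = 0.947), and within slides 1, 2 and 3 the main probe gave -0.96, -0.076 and -0.39. In WT the main probe differed by -0.16 ± 0.14.

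Of the alpha members, 1 fell and 0 rose with FB1 in KO. Gsta3, a main alpha subunit of mouse liver, read 8.54 to 8.84 in KO control and 8.12 to 8.62 in KO FB1 arrays, with 4 of the 6 latter between 8.12 and 8.22. FB1 lowered it in KO by 0.37 ± 0.084 on the log2 scale (limma adjusted p = 0.00128), and with FB1 it was lower in KO than in WT by a difference of -0.27 ± 0.084 (limma adjusted p = 0.0153). Both calls were lost with quantile normalisation, at -0.13 (limma adjusted p = 0.118) and -0.083 (limma adjusted p = 0.342), and with the authors' values (-0.0996 and -0.045). Within slides 1, 2 and 3 the FB1 difference in KO was -0.55, -0.051 and -0.51. Its second probe fell in KO by 0.51 ± 0.10 (limma adjusted p = 0.000355) and tracked the first (r = 0.97). The third, at 21246334 to 21246393 of chromosome 1, correlated with the first at 0.13 and gave -0.24 ± 0.27 (limma adjusted p = 0.516).

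Gsta2, an alpha gene inducible by electrophiles, read 4.59, 3.64, 3.76, 4.54, 3.79 and 2.73 in WT control and 3.75, 2.77, 3.81, 3.03, 3.71 and 3.34 in WT FB1 replicates 1 to 6. KO control replicates read 3.46, 4.30, 4.26, 4.44, 4.10 and 4.23, and KO FB1 replicates 5.17, 4.08, 5.14, 5.16, 3.35 and 5.33. In the last group 4 arrays lay above all others of the study, and replicates 2 and 5 did not. With FB1, KO was 2.47-fold above WT (1.31 ± 0.32, limma adjusted p = 0.00339). The FB1 difference in KO was 0.57 ± 0.32 (limma adjusted p = 0.165), and 0.84 without KO FB1 replicate 5 (limma adjusted p = 0.0245). The difference between the FB1 effects was 1.015 ± 0.46 (limma adjusted p = 0.171), and 1.29 without that array (limma adjusted p = 0.0431). KO FB1 replicates 2 and 5 are the 2 arrays of that group on slide 1, where the FB1 difference in KO was -0.46, against 1.30 and 0.88 on slides 2 and 3. With FB1 the difference between genotypes was -0.043 on slide 1, 1.89 on slide 2 and 2.07 on slide 3.

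The neighbouring Gm10639 was called where Gsta2 was not. FB1 raised it in KO by 3.69-fold (1.89 ± 0.37, limma adjusted p = 0.000296) and the difference between FB1 effects was 1.999 ± 0.52 (limma adjusted p = 0.0175). A transcript without a gene name, whose probe lies at 78116774 to 78116833 of the same chromosome, was raised by 1.01 ± 0.26 (limma adjusted p = 0.00367). Both were chosen by likeness to Gsta2, with which they correlated at 0.89 and 0.93 over the 24 arrays. Gsta4, which removes lipid peroxidation aldehydes such as hydroxynonenal, was not called in any comparison. It read 1.01 to 1.79 in KO control and 0.37 to 1.68 in KO FB1 arrays, and the lowest was replicate 5. Its FB1 difference in KO was -0.15 with that array and 0.024 without it, and its difference between genotypes with FB1 was -0.035 and 0.14. After group means were removed, Gsta2 and Gsta4 correlated at r = 0.88.

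Counted over the members, 3 rose and 4 fell with FB1 in KO, and their median difference was 0.011. Of all 22088 genes 41.2% were called in this comparison, 16.5% higher and 24.6% lower, with a median of -0.075. The groups did not overlap for 2 members, Gstt1 and Gstt3, against 18.4% of all genes. In WT 0 of 10 were called by limma, against 2.89% of all genes (2.06% higher, 0.824% lower). An unadjusted limma p under 0.05 was reached by 2 of the 10 (Gstt1 and Gstt3) and by 18.1% of all genes. The groups did not overlap for 1 member, against 2.33%. Receptor loss without FB1 gave 1 call, a lower one, against 15.2% of all genes (7.21% higher, 8.02% lower), and groups without overlap for 2 members (Gstt1 and Gstt3), against 7.93%. With FB1, 3 members were higher (Gsta2, Gstp1, Gstm3) and 3 lower (Gstt3, Gstt1, Gsta3), against 32.8% of all genes called (14.5% higher, 18.3% lower), and the groups did not overlap for 3, against 15.2%. The difference between FB1 effects was called for Gstm3, Gstt1 and Gstt3, against 9.3% of all genes (4.46% higher, 4.84% lower). The comparisons share groups of arrays, so their counts are not independent of each other.

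Some cell type markers moved in the same arrays, in a comparison that called 16.5% of all genes higher and 24.6% lower. With FB1 in KO, 12 of 13 recruited macrophage markers rose and 0 fell, and their summed level, in multiples of the array's 75th percentile, went from 44.7 to 66.2 in KO control to 119 to 153 in KO FB1 arrays. Of 15 stellate cell and fibroblast markers 10 rose (110 to 134, then 154 to 188), and of 20 cell cycle genes 20 rose (7.24 to 11.6, then 19.3 to 57.7). The cell cycle sum was also higher in WT FB1 (16.5 to 39.3) than in WT control arrays (5.65 to 14.4). With FB1 in WT 19 of these 20 genes were called, against 2.89% of all genes. There 5 of 13 recruited macrophage and 4 of 15 stellate cell and fibroblast markers also rose and 0 fell, against 2.06% of all genes higher. The summed levels of these 2 lists overlapped between the WT groups. In KO with FB1, 11 of 15 sinusoidal endothelium markers fell (66.2 to 100.4, then 45.7 to 63.5). Of 13 Kupffer cell markers 4 rose while 2 fell (41.2 to 64.5, then 55.8 to 78.2). Lymphocyte markers rose in 4 of 9 cases, cholangiocyte markers in 3 of 13, neutrophil markers in 2 of 11 with 1 lower, and of 7 erythroid markers 1 fell. The shares called were 23.1% of cholangiocyte, 27.3% of neutrophil and 14.3% of erythroid markers, below the 41.2% of all genes. Of 14 hepatocyte markers 1 rose and 3 fell (28.6%, also below that share), and their summed level was 5398 to 6619 in KO control and 4735 to 6594 in KO FB1 arrays. In receptor loss without FB1, 10 of 13 Kupffer cell markers were lower (87.9 to 232.04 in WT control), against 8.02% of all genes. Of 13 recruited macrophage markers 6 were higher and 3 lower in that comparison, where 7.21% of all genes were higher. The part of these shifts in the GST values was not tested.

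The remaining GST genes were read as a list of 21 names, of which 18 were on the array under that name and 17 were tested. With FB1 in KO 4 rose and 7 fell, with a median difference of -0.25, against 16.5% and 24.6% of all genes. The 4 include Gstcd, which passed the filter through the KO FB1 group alone. In WT 0 of 17 were called by limma, and 5 had an unadjusted p under 0.05, as did 18.1% of all genes. Gstp2, the pi neighbour of Gstp1, read 7.10 to 7.68 in KO control and 7.60 to 8.11 in KO FB1 arrays, and rose by 0.65 ± 0.10 (limma adjusted p = 3.36e-05). Its FB1 effects differed between genotypes by 0.50 ± 0.14 (limma adjusted p = 0.0298). Gstp3 was lower in KO both without FB1 (-0.65 ± 0.14, limma adjusted p = 0.00199) and with it (-0.83 ± 0.14).

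Genes outside the members that fell in KO with FB1 included a mu gene and genes of other classes. Gsto2, an omega enzyme that reduces dehydroascorbate, read -1.99 to -1.11 in KO control and -3.92 to -3.20 in KO FB1 arrays, a 3.76-fold fall (-1.91 ± 0.19, limma adjusted p = 1.89e-07). It was higher in KO than in WT without FB1 (0.85 ± 0.19, limma adjusted p = 0.00304). Gstz1, the zeta enzyme of tyrosine breakdown, fell by 0.67 ± 0.10 (limma adjusted p = 2.71e-05), Gstk1, the kappa enzyme of mitochondria and peroxisomes, by 0.64 ± 0.11 (limma adjusted p = 0.00011), and Gstm7 by 0.72 ± 0.12 (limma adjusted p = 8.95e-05). The membrane-bound Mgst1 fell by 0.30 ± 0.078, and the prostaglandin E synthases Ptges and Ptges2 fell by 0.28 ± 0.076 and 0.34 ± 0.068. The Ptges value rests on its main probe alone. Its other probes were well above background on 0 to 2 of 6 arrays in each group. Differences between the FB1 effects were called for Gsto2 (-1.29 ± 0.27), Gstk1 (-0.52 ± 0.16) and Gstz1 (-0.52 ± 0.15), with limma adjusted p from 0.00527 to 0.0403.

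Hpgds, the prostaglandin D synthase known from immune cells, rose. It read -4.70 to -3.87 in KO control and -3.33 to -2.61 in KO FB1 arrays (1.14 ± 0.28, limma adjusted p = 0.00283). It was well above background on 1 of 6 arrays in each WT group and on all 6 in each KO group, so no size is given for its difference between genotypes. Its second probe did not pass the test for FB1 in KO (0.54 ± 0.29, limma p adjusted over probes = 0.144). Mgst2, which makes leukotriene C4, rose with FB1 in KO by 0.58 ± 0.23 (limma adjusted p = 0.043) and was lower in KO control than in WT control (-0.70 ± 0.23, limma adjusted p = 0.0363). Gstcd was also called higher, but it was well above background on 3 of 6 KO control and 6 of 6 KO FB1 arrays. It was tested through the latter group alone, in which it is highest, so the filter favours this call and no p-value or size is given.

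**Figure D4:**
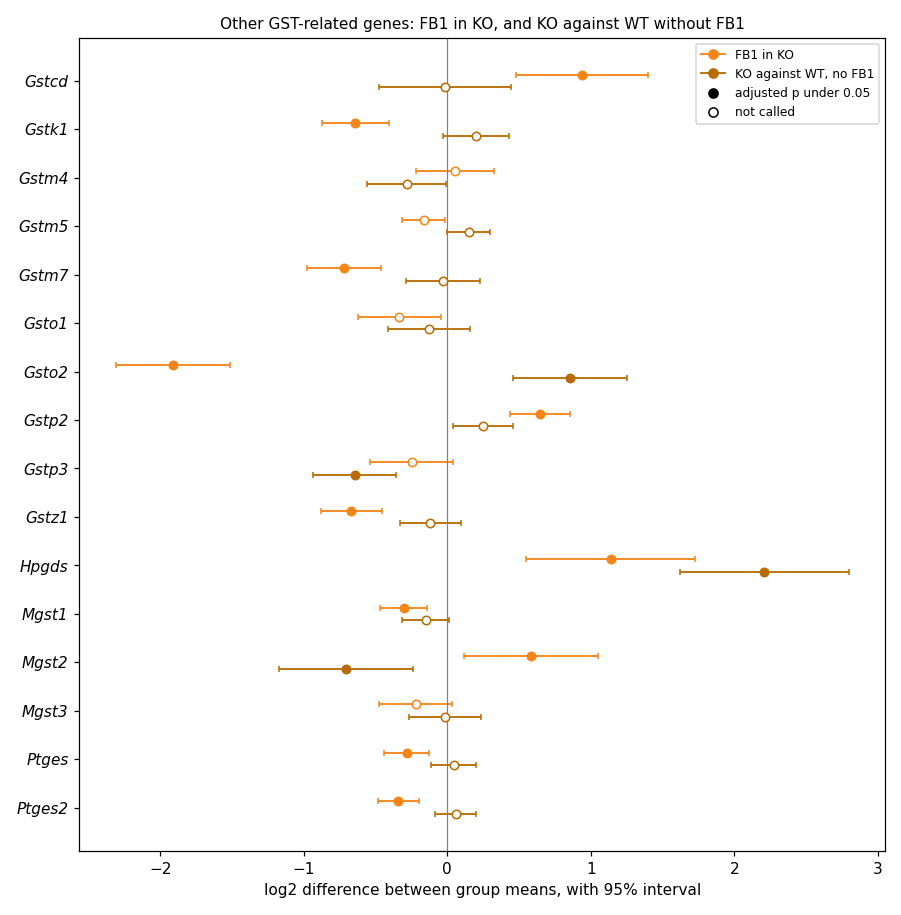
Log2 differences with 95% intervals (x axis) of 16 other GST-related genes (y axis) for FB1 in KO and for KO against WT without FB1; filled symbols have adjusted p under 0.05, and Gstt2, read at -7.32 on 1 WT control array, is left out. Gsto2 and Mgst2 lie on opposite sides of 0 in the comparisons, and Hpgds lies above 0 in both, with 1 of 6 WT control arrays well above background. Gstcd was tested through the KO FB1 group alone, so its plotted size is not to be read.

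Genes around conjugation moved in both directions. Of 15 genes of glutathione synthesis 2 rose and 7 fell with FB1 in KO, where 16.5% of all genes rose and 24.6% fell. The falls were led by the methionine cycle that feeds cysteine, with Ahcy at -1.31 ± 0.15 (limma adjusted p = 6.22e-07), Mat1a at -1.16 ± 0.16 and Gnmt at -1.04 ± 0.12, while the glutamine carrier Slc1a5 rose by 0.84 ± 0.096. Glutathione synthetase, Gss, was higher in KO than in WT without FB1 (0.51 ± 0.13, limma adjusted p = 0.0095) and with it (0.90 ± 0.13). The subunits of the rate-limiting ligase, named outside the rule with their values known, were not called for FB1 in KO, with Gclc at -0.037 ± 0.13 and Gclm at -0.14 ± 0.074.

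Among 19 glutathione redox enzymes 4 rose and 9 fell with FB1 in KO, against 16.5% and 24.6% of all genes. The peroxidases Gpx2, Gpx7 and Gpx3 rose 3.77-fold, 3.58-fold and 2.71-fold (limma adjusted p from 3.63e-08 to 7.21e-07), and Prdx6 fell by 0.71 ± 0.10. Of these, Gpx2 and Gpx3 also differed between the FB1 effects of the genotypes (1.71 ± 0.31 and 1.31 ± 0.18). Among 19 genes of conjugate export and mercapturate formation 6 rose and 7 fell, against the same shares of all genes. The dipeptidases Dpep2 and Dpep1, which cleave cysteinylglycine conjugates, rose by 1.51 ± 0.16 and 1.39 ± 0.29, the exporter Abcc5 rose by 0.60 ± 0.081, and the aminoacylase Acy1 fell by 1.03 ± 0.12. Nat8, which acetylates cysteine conjugates as the last step to mercapturates, was 14.1-fold higher in KO than in WT without FB1 (3.81 ± 0.31, limma adjusted p = 3.3e-09).

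**Figure D5:**
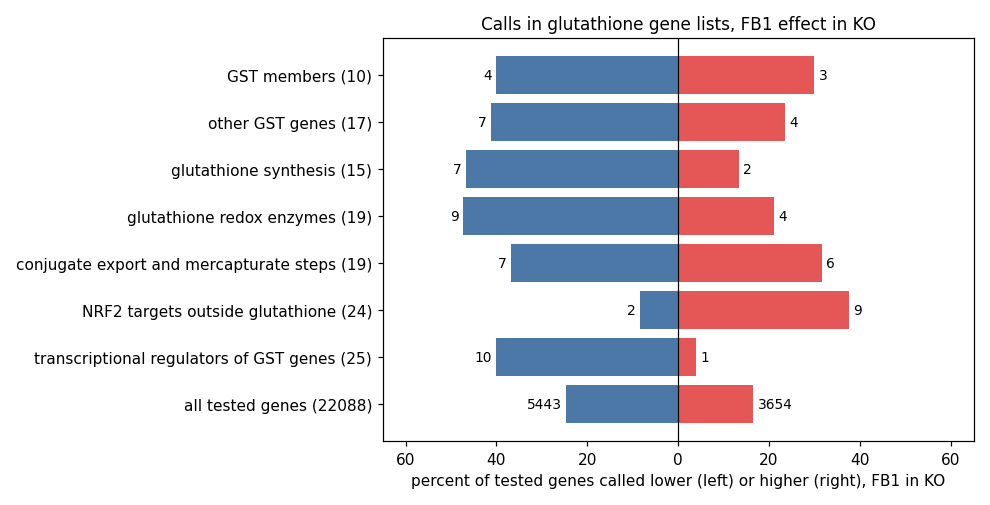
Percent of tested genes in each glutathione-related list, and of all genes, called lower (left, blue) or higher (right, red) with FB1 in KO; the number tested stands in brackets and the number called at each bar. Falls outnumber rises in all lists but the NRF2 targets, where 9 of 24 rose and 2 fell.

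Of 24 NRF2 targets outside glutathione metabolism, 9 rose and 2 fell with FB1 in KO, with a median of 0.34. The share called, 45.8%, was close to the 41.2% of all genes (16.5% higher, 24.6% lower). The carbonyl reductase Cbr3 rose by 1.35 ± 0.20, sulfiredoxin Srxn1 by 1.14 ± 0.18 and the epoxide hydrolase Ephx1 by 0.64 ± 0.10, while Cbr1 fell by 0.58 ± 0.11. Without FB1, 8 of the 24 were lower in KO than in WT and 0 higher, against 8.02% and 7.21% of all genes. The NADPH-forming Me1 was at -1.28 ± 0.16 and G6pdx at -1.02 ± 0.14. Of 25 regulators known to act on GST genes, directly or through signalling, 1 rose and 10 fell with FB1 in KO. The share called, 44%, was also close to the 41.2% of all genes. The falls included the growth hormone receptor Ghr (-0.78 ± 0.11), the hepatocyte factor Cebpa (-0.56 ± 0.11) and the growth hormone mediator Stat5b (-0.50 ± 0.093). Nr5a2, a receptor of bile acid and cholesterol genes, was lower in KO without FB1 (-1.44 ± 0.075, limma adjusted p = 9.3e-13).

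Since GST genes differ by sex and by zone, such lists were counted too. With FB1 in KO, 12 of 20 female-biased and 10 of 17 male-biased liver genes fell, and 0 and 3 rose, where 24.6% of all genes fell and 16.5% rose. Of 20 pericentral hepatocyte genes 10 fell, of 20 periportal ones 14 fell, and none of either rose, with medians of -0.41 and -0.49. In WT, limma called 0 genes of these lists, while 5 female-biased, 5 male-biased, 7 pericentral and 6 periportal genes had an unadjusted p under 0.05, against 18.1% of all genes.

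Promoters were read from RefSeq (GRCm38.p6), which gave 13 windows for 9 members. Each window of 250 bases before a gene's start was searched on both strands for the core of the antioxidant response element, TGACNNNGC, to which NRF2 binds, and for the core of the xenobiotic response element, GCGTG, to which the AHR binds. The first was in 10.2% and the second in 28.2% of 32851 windows of the same length. Gsta3 was the member with the antioxidant core, 121 bases before its start. GCGTG was found in windows of Gsta2, Gstm1 and Gstp1, and no match was found for Gstm2, Gstm3, Gstm6, Gstt1 and Gstt3. Gsta3 fell with FB1 in KO, a call lost with quantile normalisation and with the authors' values. The Gstp1 probe, for which Gstp2 is listed too, rose. The windows of Gsta3 and Gstp1 are shown 5′ to 3′, with the matched letters in capitals, at chr1:21240335-21240584 on the plus strand and chr19:4037913-4038162 on the minus strand.
Gsta3: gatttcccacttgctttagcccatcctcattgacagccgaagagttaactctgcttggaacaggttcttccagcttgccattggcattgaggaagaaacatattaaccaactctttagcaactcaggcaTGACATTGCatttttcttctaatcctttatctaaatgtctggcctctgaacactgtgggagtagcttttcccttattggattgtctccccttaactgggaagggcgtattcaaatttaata
Gstp1: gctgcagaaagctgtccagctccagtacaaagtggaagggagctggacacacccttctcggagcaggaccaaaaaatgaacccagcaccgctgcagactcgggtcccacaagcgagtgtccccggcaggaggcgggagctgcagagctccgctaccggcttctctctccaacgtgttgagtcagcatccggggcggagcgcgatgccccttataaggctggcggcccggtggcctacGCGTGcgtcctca
A match is a description of these letters and not a binding site, and its absence from a window says nothing of the factor.

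Genes outside the family whose levels were most like those of a member, by Pearson's r over the 24 arrays, are given as a description, since all arrays share the 4 groups and the scaling. Gstt3 was most like Qdpr (0.99), a reductase of the tetrahydrobiopterin cycle, and Cml3 (0.98). Gstt1 was most like Hsd11b1 (0.97), which regenerates glucocorticoid, and Ak3 (0.97). Gsta3 was most like Uqcrb (0.96), a subunit of respiratory complex III, and Tas1r3 (0.95). For Gstp1 it was an unnamed transcript of chromosome 1 (0.97), which itself rose with FB1 in KO by 0.72 ± 0.12 (limma adjusted p = 7.69e-05). The closest for the other members were Pou5f1 (0.90) and an unnamed transcript of chromosome 12 (0.91) for Gstm3, Clptm1l (0.84) for Gstm2, 4930415C11Rik (0.81) for Gstm1, AK035793 (0.84) for Gstm6 and H2bfm (0.75) for Gsta4. Between members of different direction, Gstp1 and Gstt3 correlated at -0.83 over all arrays and at -0.093 once group means were removed.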

How the data were processed

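Liver RNA of 24 mice in 4 groups of 6 was read on 24 one-colour (Cy3) arrays, on 3 slides with 2 arrays of each group per slide. Per the submitters' processing notes the arrays were read with Agilent Feature Extraction 10.10.1.1 and analysed with limma. The deposited scanner files give processed signal intensity, background-corrected per the file headers; the authors' deposited table of normalised log2 values (33417 probes) was an alternative.

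Here log2 of the processed signal was scaled to each array's 75th percentile (490 to 685), control and outlier spots were left out, and replicate spots were averaged by probe. Tested probes were well above background on all arrays of at least 1 group, with at least 4 values in every group. This gave 33417 probes, the same number as in the authors' table, with 32012 in both. Why the numbers are equal was not examined. limma 3.58.1 in R 4.3.3 fitted 4 group means over 24 arrays. In simulated data for FB1 in KO on 22088 genes, 46 of 50 genes changed by -1 and 45 of 50 changed by 1 (log2) were recovered, with 9 false calls in all. Values were drawn independently and few genes were changed, so arrays that shift many genes together are not covered. Alternatives covered scaling, background, filters, probes, blocks, variance and each array left out. The members and lists were chosen with earlier results of these data known. From each other list the text names called genes with the smallest p, up to 4 for FB1 in KO and 2 for every other comparison; exceptions are marked. The number of arrays limits the precision. Array slide was the batch, and replicate numbers did not pair arrays (same-number correlations -0.20 to 0.24, with 5 of 36 over 0.1).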

Additional observations from a re-analysis of the deposited data

Results flagged for a closer look

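Single arrays stood apart in some groups of 6, where the gap from the extreme array to the next exceeded the share of the group's range that Dixon's 95% limit allows. This occurred in 5 of 40 groups for the members and in 6 of 68 for the other GST genes, and chance gives about 1 in 20. KO control replicate 1 was low for Gsta2 (3.46) and Gstt1 (6.81). WT control replicate 6 was low for Gstm1 (7.35), and WT control replicate 2 was low for Gstm2 (5.01). KO control replicate 5 was high for both pi genes, at 4.54 for Gstp1 and 7.68 for Gstp2, and WT control replicate 1 was high for Gstp2 (7.27). Mgst3 was low on WT FB1 replicate 2 (2.03) and KO FB1 replicate 5 (2.01), and high on KO control replicate 4 (3.11). Gstt2 read -7.32 on WT control replicate 5.

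FB1 effects that differed between KO and WT by the interaction term of limma are given as KO minus WT. Among GST genes the values were 0.54 for Gstm3, -0.61 for Gstt1, -1.21 for Gstt3, 0.50 for Gstp2, -0.52 for Gstk1, -1.29 for Gsto2 and -0.52 for Gstz1. In glutathione synthesis and redox they were -0.97 for Ahcy, -0.52 for Cbs, 1.71 for Gpx2 and 1.31 for Gpx3. In mercapturate formation they were 1.45 for Dpep2 and -0.85 for Acy1. Among NRF2 targets they were 0.96 for G6pdx and 1.24 for Cbr3, and among regulators -0.69 for Cebpa and -0.61 for Ghr.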

How the results depend on the processing

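The FB1 calls in KO for Gstt1, Gstt3, Gstp1 and Gstm3 held under all 13 tested alternatives. Members called lower with FB1 in KO numbered 2 with the authors' values and 3 with quantile normalisation and with the mean of probes (4 otherwise). Members called lower with FB1 in WT numbered 1 (0 otherwise) with median scaling, normexp background, the mean of probes, slide as a block, the replicate block, an intensity trend, array weights, and only the compared groups; probes called there numbered 1 with median scaling, normexp, the slide block and the replicate block. The replicate numbers do not pair the arrays, and 2 of 24 arrays correlated best with their own number. The difference between FB1 effects was called higher for 3 members with quantile normalisation and with the authors' values and for 0 without a filter (1 otherwise), and for 5 probes with quantile normalisation (3 otherwise). Slide 1 alone gave 0.018 for Gstm3 and -0.067 for Gstm2 with FB1 in KO. It gave -0.043 for Gsta2 between genotypes with FB1, and slide 2 alone gave 0.035 for Gsta3 there. The cause was not tested.

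Over all genes, 182 were lower with FB1 in WT, against 619 with median scaling, 84 with the authors' values, 69 without a filter and 62 with only the compared groups. The differences between FB1 effects numbered 985 higher and 1070 lower, and 641 and 617 without a filter. Leaving out each array in turn, members with FB1 in KO numbered 2 to 5 higher and 4 to 4 lower, in WT 0 to 0 higher and 0 to 2 lower, between genotypes with FB1 2 to 3 higher and 3 to 3 lower, without FB1 0 to 0 higher and 1 to 3 lower, and for the difference 1 to 4 higher and 2 to 2 lower. All genes with FB1 in WT then numbered 309 to 556 higher and 77 to 283 lower (77 without WT FB1 1, 283 without WT FB1 4), and for the difference 726 to 1275 higher and 756 to 1763 lower (1763 without KO FB1 3).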
